A study of Mus musculus with 6 samples.

Results

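Cdh1, Cdh2, Cdh3, Cdh11, Ctnna1, Ctnnb1, Ctnnd1 and Epcam encode classical cadherins, the catenins that bind their tails, and the epithelial adhesion protein EpCAM. These 8 genes, of 27179 in the deposited count table, were taken by matching Entrez identifiers to gene symbols, and each had 1 row. Messenger RNA was sequenced in bulk from EpCAM-positive cells sorted by flow cytometry from embryonic mouse lungs at E16.5. Grhl2_cKO libraries (n = 3, replicates 1, 5 and 10) had the genotype Shh-Cre;Grhl2f/-, with 1 floxed and 1 null allele of Grhl2, the gene of grainyhead-like 2, a transcription factor of epithelia. Control libraries (n = 3, replicates 1, 3 and 7) had the genotype Shh-Cre;Grhl2f/+, with 1 floxed and 1 intact allele. Shh-Cre was present in both genotypes; it drives Cre recombinase from the Sonic hedgehog locus, which is active in the epithelium of the embryonic lung, and controls therefore retain 1 working Grhl2 allele where Cre has cut. Each genotype had 2 male libraries and 1 female library. The labels do not say whether a sample was 1 embryo or a pool, and p-values refer to the spread among these libraries, which may be technical.

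Cadherins are calcium-dependent adhesion proteins of adherens junctions, and each cell type carries a characteristic set. E-cadherin (Cdh1) joins epithelial cells, P-cadherin (Cdh3) is found beside it in many epithelia, N-cadherin (Cdh2) is known from nerve, heart muscle and mesenchyme, and cadherin-11 (Cdh11) is a type II cadherin of mesenchyme. Inside the cell, beta-catenin (Ctnnb1) binds the cadherin tail and alpha-catenin (Ctnna1), which links to actin, while the catenin encoded by Ctnnd1 binds closer to the membrane and holds cadherins at the surface. EpCAM is an adhesion protein of epithelia and was the surface marker of the sort, so its transcript was measured in cells already chosen for its protein. A rise of N-cadherin beside a fall of E-cadherin is a textbook readout of epithelial cells that take on mesenchymal traits, which is why the ratio of Cdh2 to Cdh1 was computed in each library.

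The sequence before the transcription start is shown for Epcam, which was lower in Grhl2_cKO cells, and for Ctnnb1, which was not called. RefSeq promoter sequences (build GRCm38.p6) were at hand for 3 of the 8 genes, and the third, Ctnnd1, had no match to the motifs searched. The windows are the 250 bases upstream of the annotated start, on the plus strand in both genes, at chr17:87635729-87635978 for Epcam and chr9:120933150-120933399 for the first of 2 Ctnnb1 starts; the window of the second start had no match. Capitals mark matches to ACCGGT, the inner 6 bases of the palindromic grainyhead motif AACCGGTT, and to the E-box CACCTG or its reverse complement CAGGTG, which Snail and Zeb repressors bind.
Epcam: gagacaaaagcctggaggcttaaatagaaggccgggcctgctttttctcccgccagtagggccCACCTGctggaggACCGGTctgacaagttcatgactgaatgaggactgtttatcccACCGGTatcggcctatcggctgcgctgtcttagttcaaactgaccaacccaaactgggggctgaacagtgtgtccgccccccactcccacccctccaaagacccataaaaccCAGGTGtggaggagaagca
Ctnnb1: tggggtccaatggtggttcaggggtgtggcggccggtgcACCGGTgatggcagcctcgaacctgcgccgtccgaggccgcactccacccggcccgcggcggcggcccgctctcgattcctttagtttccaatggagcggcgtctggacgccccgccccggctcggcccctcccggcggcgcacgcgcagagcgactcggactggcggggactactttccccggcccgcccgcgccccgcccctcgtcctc
The Epcam window held ACCGGT at 2 places, starting 174 and 131 bases upstream of the start, and the E-box at 2 places, 187 and 19 bases upstream. The Ctnnb1 window held ACCGGT once, 211 bases upstream, and no E-box. Neither held the full AACCGGTT. Among 32851 mouse promoter windows of the same length, 1.86% held ACCGGT at least once, 0.0274% held it at 2 or more places, 17.2% held the E-box at least once, 2.06% held it at 2 or more places, and 0.116% held AACCGGTT. Each AACCGGTT also counts as an ACCGGT. A match describes the letters and is not a measured site.

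Across the libraries, gene counts summed to 13472216 to 17228762 per library, and the 8 genes had between 260 and 27897 counts in a library. Levels are given as CPM, counts scaled to equal library size with TMM factors. The 3-count limit was 0.178 to 0.224 CPM, far below each of the 8 genes, and covers counting error only. Grhl2 (chromosome 15) stood at 105.3, 109.2 and 115.3 CPM in Grhl2_cKO libraries, against 149.2, 147.9 and 146.0 CPM in control libraries (log2 fold change -0.43 ± 0.06, SE, n = 3 per group; edgeR adjusted p = 0.0026). The labels do not name the deleted exons, so reads from outside the deleted part can remain. In bulk samples, fewer cells of a type and less RNA per cell cannot be told apart.

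All 8 genes passed the filter on low counts. At an edgeR adjusted p below 0.05 over 14842 genes, 2 of the 8 were higher in Grhl2_cKO libraries (Cdh2 and Cdh3) and 1 was lower (Epcam). Over all genes tested, 3.62% were called, 1.23% as higher and 2.39% as lower. The CPM of the genotypes did not overlap for 2 genes that were higher (Cdh2 and Cdh3) and 2 that were lower (Epcam and Cdh1), against 8.17% and 9.89% of all genes tested. The median log2 fold change of the 8 genes was -0.04, and that of all genes tested was -0.0039.

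**Figure D1:**
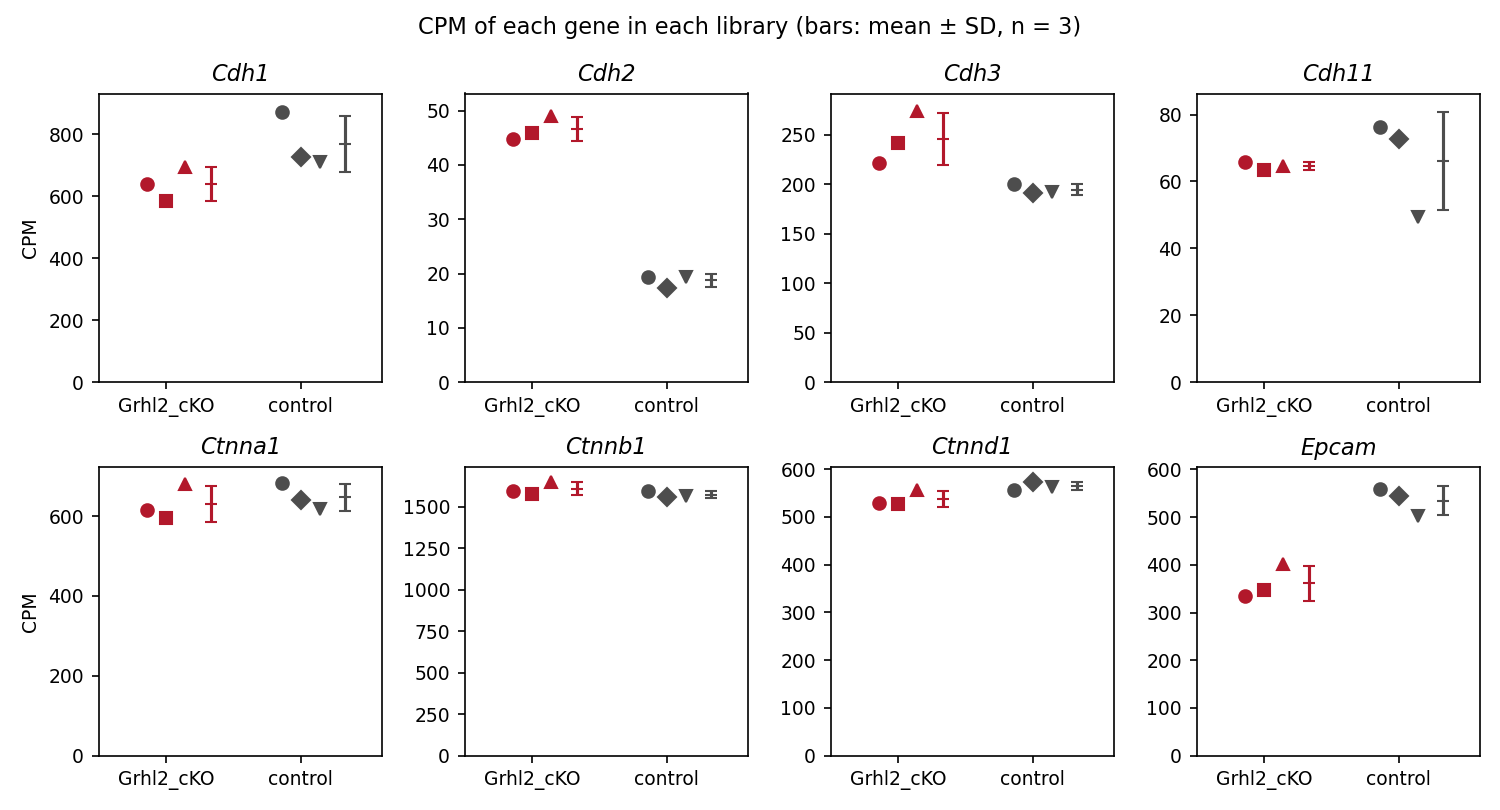
CPM (vertical axes, from 0, one scale per gene) of the 8 genes in each library, with Grhl2_cKO in red and control in grey; each symbol is 1 library and bars are the mean ± SD (n = 3). Cdh2 lay at 44.8 CPM or more in Grhl2_cKO libraries and at 19.4 CPM or less in control libraries, Epcam was lower in the 3 Grhl2_cKO libraries, and the 3 catenins overlapped.

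Per kilobase of the deposited gene length, the level was highest for Ctnnb1 and lowest for Cdh2 in both genotypes. In Grhl2_cKO libraries, mean levels ran from 443.8 CPM per kb for Ctnnb1 through 175.3 for Epcam, 171.5 for Ctnna1, 144.8 for Cdh1, 98.2 for Ctnnd1, 61.5 for Cdh3 and 15.3 for Cdh11 to 10.0 for Cdh2. In control libraries, they ran from 434.3 CPM per kb for Ctnnb1 through 259.4 for Epcam, 176.0 for Ctnna1, 174.4 for Cdh1, 103.1 for Ctnnd1, 48.7 for Cdh3 and 15.7 for Cdh11 to 4.03 for Cdh2. The order of the 8 was the same in both genotypes. Neighbours in it overlapped between Epcam and Ctnna1 in Grhl2_cKO libraries and between Ctnna1 and Cdh1 in control libraries, and no other neighbours overlapped.

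Cdh2, encoding N-cadherin, had the largest change of the 8 genes. Cdh2 (Entrez 12558, chromosome 18, 16588877 to 16809246, minus strand, mm10) stood at 44.8, 45.8 and 49.0 CPM in Grhl2_cKO replicates 1, 5 and 10, against 19.4, 17.4 and 19.4 CPM in control replicates 1, 3 and 7. The lowest Grhl2_cKO library was above the highest control library by more than the range of either genotype. Cdh2 rose 2.48-fold, by 1.31 ± 0.08 in log2 (SE, n = 3 per group; edgeR adjusted p = 2.62e-05). Among all genes tested, Cdh2 ranked 8 by p and 42 by log2 fold change from the highest. The spread between replicates, a coefficient of variation of 4.76% in Grhl2_cKO and 6.11% in control libraries, was close to what counting alone gives at these depths, 3.62% and 5.95%. It was called under each of 16 alternative settings, with edgeR, DESeq2 or limma-voom adjusted p of at most 0.000307.

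Cdh3, encoding P-cadherin, rose by a smaller step. Cdh3 (Entrez 12560, chromosome 8, 106510852 to 106556911, plus strand, mm10) stood at 221.9, 241.5 and 273.5 CPM in Grhl2_cKO replicates 1, 5 and 10, against 200.6, 191.3 and 191.8 CPM in control replicates 1, 3 and 7. Each Grhl2_cKO library was above each control library, and Grhl2_cKO replicate 1 was the nearest to the controls. The rise was 1.26-fold, or 0.34 ± 0.08 in log2 (SE, n = 3 per group; edgeR adjusted p = 0.0394). The call depended on single libraries: the edgeR adjusted p was 0.105 when Grhl2_cKO replicate 5 was left out, 0.0967 when Grhl2_cKO replicate 10 was, 0.151 when control replicate 3 was and 0.122 when control replicate 7 was.

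Cdh1, encoding E-cadherin, did not pass the test. Cdh1 (Entrez 12550, chromosome 8, 106603350 to 106670247, plus strand, mm10) stood at 639.7, 583.6 and 693.6 CPM in Grhl2_cKO replicates 1, 5 and 10, against 873.3, 725.7 and 710.3 CPM in control replicates 1, 3 and 7. Each Grhl2_cKO library was below each control library, but the highest Grhl2_cKO and lowest control libraries were close, and control replicate 1 stood above the other controls. Cdh1 was at 83.0% of control, with a log2 fold change of -0.27 ± 0.10 (SE, n = 3 per group; 95% interval -0.48 to -0.06; edgeR adjusted p = 0.210). That interval is not adjusted for the number of genes tested. The adjusted p stayed between 0.0725 and 0.540 over 16 alternative settings, and without control replicate 1 the log2 fold change was -0.16. Cdh1 and Cdh3 are neighbours on the same strand, 46.4 kb apart, with 1 protein-coding gene annotated between them.

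Cdh11, the mesenchymal cadherin, was not called. Cdh11 (Entrez 12552, chromosome 8, 102632095 to 102785493, minus strand, mm10) stood at 65.7, 63.4 and 64.7 CPM in Grhl2_cKO replicates 1, 5 and 10, against 76.2, 72.6 and 49.5 CPM in control replicates 1, 3 and 7. The Grhl2_cKO libraries lay close together and inside the range of the controls, where replicate 7 was low. The fitted difference was -0.03 ± 0.13 in log2 (SE, n = 3 per group; 95% interval -0.33 to 0.26; edgeR adjusted p = 0.982).

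**Figure D2:**
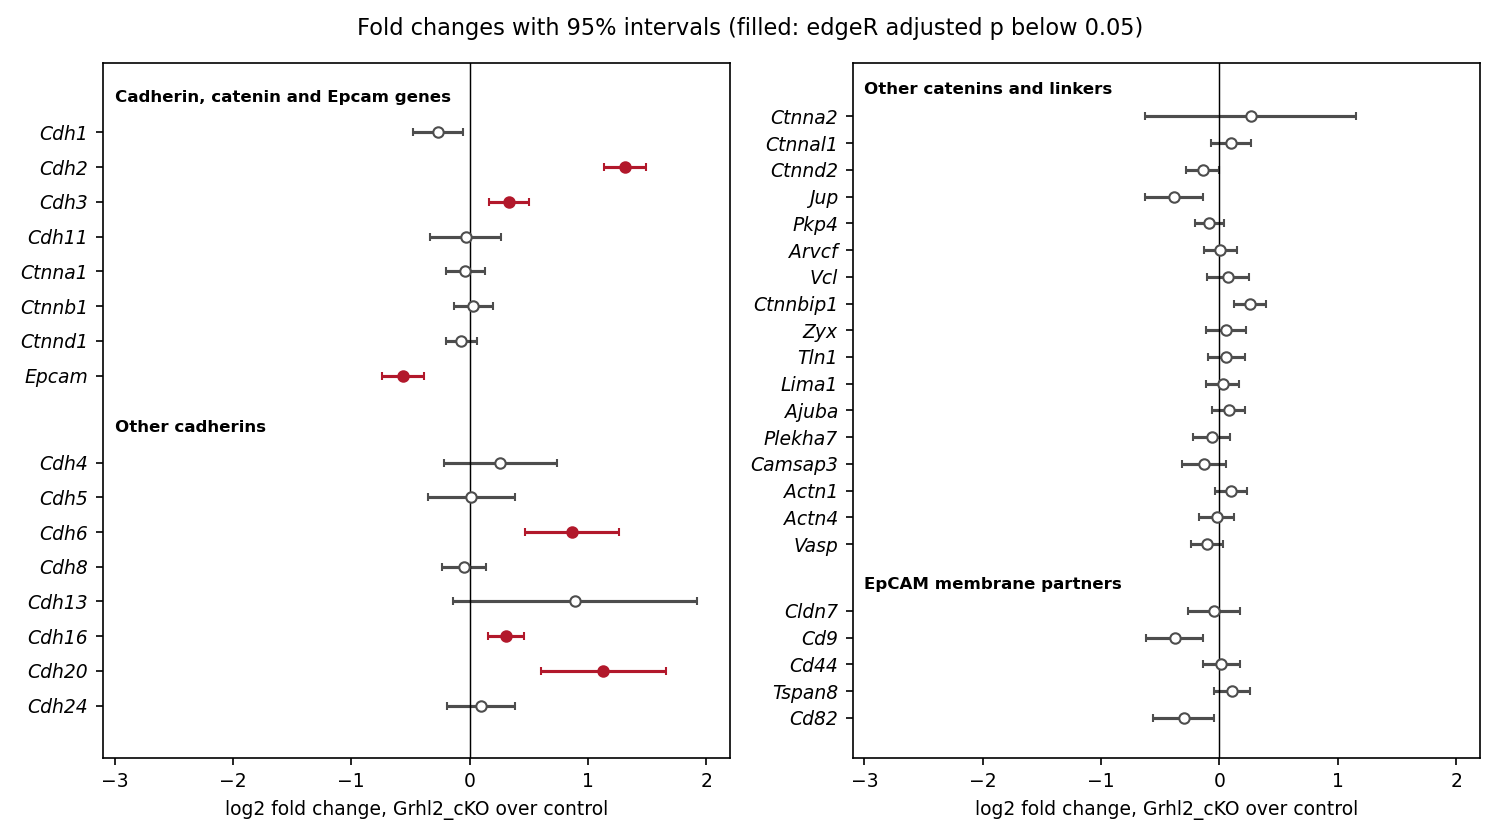
Log2 fold change of Grhl2_cKO over control (horizontal axes) with 95% intervals for the 8 genes, other cadherins, other catenins and linkers, and the EpCAM membrane partners. Filled red points had an edgeR adjusted p below 0.05 over 14842 genes. Cdh2 lay at 1.31, Epcam at -0.56 and the 3 catenins within 0.07 of 0.

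The ratio of N-cadherin to E-cadherin transcripts was higher in Grhl2_cKO libraries. Cdh2 had 7.00, 7.85 and 7.07 counts per 100 Cdh1 counts in Grhl2_cKO replicates 1, 5 and 10, against 2.22, 2.40 and 2.73 in control replicates 1, 3 and 7. The genotypes did not overlap: the ratio averaged 7.31 ± 0.47 in Grhl2_cKO and 2.45 ± 0.25 in control libraries (SD, n = 3 each). The log2 difference was 1.58 ± 0.10 (SE), or 2.99-fold. The fitted log2 fold change was 1.31 for Cdh2 and -0.27 for Cdh1, which was not called. An exact two-sided permutation test gave p = 0.1 (0.1 after Benjamini-Hochberg adjustment over 4 ratios), which is the smallest p that 3 against 3 libraries allow, so the ratio could not pass 0.05. The lack of overlap and this p follow from Cdh2 being higher and Cdh1 lower in each Grhl2_cKO library than in any control library. They are no separate result. Within males the log2 difference was 1.69 (2 libraries against 2), and within females it was 1.36 (1 against 1). The log2 difference was 1.44 when Cdh2 was set against the sum of Cdh1 and Cdh3, 1.32 against the sum of the 3 catenins, and 1.88 against Epcam. Per kilobase, Cdh2 averaged 6.94 per 100 of Cdh1 in Grhl2_cKO and 2.33 in control libraries, so E-cadherin transcripts outnumbered those of N-cadherin in both genotypes.

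The 3 further ratios computed (Cdh3 to Cdh1, Epcam to Cdh1 and Cdh11 to Cdh2) also differed without overlap, each at the smallest exact permutation p of 0.1 for n = 3 per group. For Cdh3 to Cdh1 this follows from Cdh3 being higher and Cdh1 lower in each Grhl2_cKO library than in any control library. Cdh3 had 34.7, 41.4 and 39.4 counts per 100 Cdh1 counts in Grhl2_cKO libraries, against 23.0, 26.4 and 27.0 in control libraries, a 1.51-fold difference. Epcam had 52.4, 59.3 and 58.1 counts per 100 Cdh1 counts in Grhl2_cKO libraries, against 64.0, 74.9 and 70.6 in control libraries, a ratio of 0.811, so Epcam was lower also relative to E-cadherin. Cdh11 had 146.7, 138.4 and 131.9 counts per 100 Cdh2 counts in Grhl2_cKO libraries, against 392.3, 417.1 and 255.7 in control libraries, a ratio of 0.400. The fitted log2 fold change was -0.03 for Cdh11 and 1.31 for Cdh2, so this ratio mostly restates the rise of Cdh2.

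The make-up of the cadherin transcripts differed between the genotypes, while their sum overlapped. Summed CPM of Cdh1, Cdh2, Cdh3 and Cdh11 was 972.1, 934.3 and 1081 in Grhl2_cKO libraries, against 1170, 1007 and 970.9 in control libraries. Of the 4 genes' counts, Cdh1 held 64.1% ± 1.67 in Grhl2_cKO and 73.3% ± 1.31 in control libraries, and Cdh3 held 24.7% ± 1.61 in Grhl2_cKO and 18.6% ± 1.34 in control libraries (SD, n = 3 each). Cdh2 held 4.68% ± 0.19 in Grhl2_cKO and 1.79% ± 0.18 in control libraries. These 3 shares did not overlap between the genotypes (exact permutation p = 0.1 each, the smallest possible), whereas that of Cdh11, 6.51% ± 0.46 in Grhl2_cKO and 6.28% ± 1.08 in control libraries, did. The shares sum to a whole, so a larger share of one gene lowers the others.

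**Figure D3:**
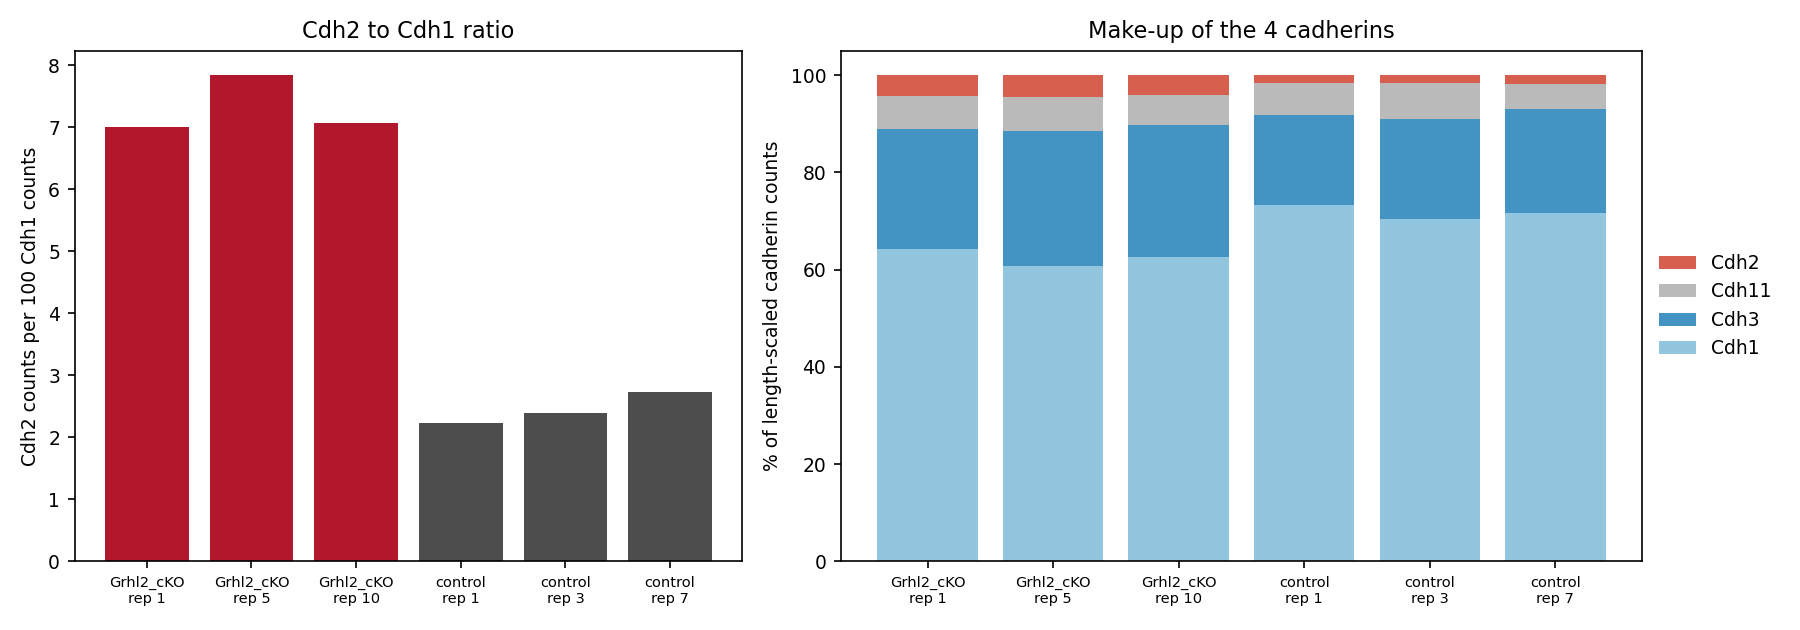
Left, Cdh2 counts per 100 Cdh1 counts in each library (red, Grhl2_cKO; grey, control); right, the share of each cadherin in the length-scaled counts of the 4 cadherins, in percent, in each library. The ratio was 7.00 to 7.85 in Grhl2_cKO and 2.22 to 2.73 in control libraries.

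The catenins, which carry the cadherin tails, were not called, and their intervals were narrow. Ctnnb1 (Entrez 12387, chromosome 9, 120933400 to 120960507, plus strand) stood at 1597, 1576 and 1652 CPM in Grhl2_cKO libraries, against 1596, 1560 and 1564 CPM in control libraries. Ctnna1 (Entrez 12385, chromosome 18, 35118902 to 35254776, plus strand) stood at 614.6, 595.7 and 681.3 CPM in Grhl2_cKO libraries, against 683.8, 640.0 and 617.5 CPM in control libraries. Ctnnd1 (Entrez 12388, chromosome 2, 84587096 to 84658977, minus strand) stood at 528.9, 527.4 and 556.8 CPM in Grhl2_cKO libraries, against 556.2, 573.1 and 563.4 CPM in control libraries. The genotypes overlapped in each of the 3. The log2 fold change of Ctnnb1 was 0.03 ± 0.07 (95% interval -0.13 to 0.20), that of Ctnna1 -0.04 ± 0.07 (-0.20 to 0.13) and that of Ctnnd1 -0.07 ± 0.06 (-0.20 to 0.06; SE, n = 3 per group; edgeR adjusted p of 0.761 to 0.958). Their summed CPM was 2740, 2699 and 2890 in Grhl2_cKO libraries, against 2836, 2773 and 2745 in control libraries. In the annotation, 759 exon bases of Ctnnb1 and 95 of Ctnna1 lie opposite exons of other genes, and 4482 of 7319 exon bases of Ctnnd1 are shared with another gene model on its strand, so their counts depend on how the authors assigned such reads; Cdh1, Cdh2, Cdh3, Cdh11 and Epcam share no exon bases.

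Epcam fell. Epcam (Entrez 17075, chromosome 17, 87635979 to 87651127, plus strand, mm10) stood at 335.1, 346.2 and 402.7 CPM in Grhl2_cKO replicates 1, 5 and 10, against 558.7, 543.6 and 501.4 CPM in control replicates 1, 3 and 7. Each Grhl2_cKO library was below each control library. Epcam was at 67.6% of control, a log2 fold change of -0.56 ± 0.08 (SE, n = 3 per group; 95% interval -0.74 to -0.39; edgeR adjusted p = 0.00412). It was called under each of 16 alternative settings, with an adjusted p of at most 0.0260. Within males the log2 difference was -0.56 and within females -0.58. Cells were sorted for EpCAM protein in both genotypes, and the part of the gate in the transcript level was not tested.

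EpCAM sits in membrane complexes with a claudin, tetraspanins and Cd44. Of 5 such partners tested, edgeR and limma-voom each called 0, with 2 lower at an unadjusted edgeR p below 0.05 (7.29% of all genes tested were lower at that p), and DESeq2 called 1, Cd9, as lower. The most abundant were the tetraspanins Cd9 and Tspan8. Cd9 stood at 173.4, 145.7 and 179.6 CPM in Grhl2_cKO replicates 1, 5 and 10, against 252.7, 203.0 and 193.0 CPM in control replicates 1, 3 and 7. The genotypes did not overlap, and control replicate 1 stood above the other controls. The fitted log2 fold change of Cd9 was -0.38 ± 0.11 (SE, n = 3 each; adjusted p = 0.104 with edgeR and 0.0119 with DESeq2). Tspan8 averaged 261.2 ± 14.7 CPM in Grhl2_cKO and 242.3 ± 17 CPM in control libraries (SD, n = 3 each; edgeR adjusted p = 0.629). Cldn7, a claudin that binds EpCAM, averaged 151.5 ± 17.9 CPM in Grhl2_cKO and 156.6 ± 17.9 CPM in control libraries (SD, n = 3 each; edgeR adjusted p = 0.95) and was chosen after its values were seen. The median log2 fold change of the 5 genes was -0.05.

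Of 18 other cadherins of the classical and closely related subfamilies, 8 were abundant enough to test, and 3 of these were higher and none lower. Of all genes tested, 1.23% were called higher and 2.39% lower. Cdh16, known as the kidney-specific cadherin, stood at 455.6, 406.3 and 431.6 CPM in Grhl2_cKO replicates 1, 5 and 10, against 368.7, 352.1 and 326.0 CPM in control replicates 1, 3 and 7, a 1.24-fold rise (edgeR adjusted p = 0.0389). Cdh6, the type II K-cadherin, stood at 3.97, 4.75 and 5.03 CPM in Grhl2_cKO libraries, against 2.39, 2.68 and 2.45 CPM in control libraries, a 1.82-fold rise (edgeR adjusted p = 0.0264). Cdh20, another type II cadherin, stood at 3.43, 3.47 and 3.79 CPM in Grhl2_cKO libraries, against 2.24, 1.22 and 1.48 CPM in control libraries, a 2.19-fold rise (edgeR adjusted p = 0.0290). In none of the 3 did the genotypes overlap, and 8.17% of all genes tested were higher without overlap. Each call was lost when any of 5 of the 6 libraries was left out: the edgeR adjusted p was 0.0634 to 0.153 for Cdh16 and 0.0593 to 0.130 for Cdh20 on omission of each library other than control replicate 1, and 0.0605 to 0.106 for Cdh6 on omission of each library other than Grhl2_cKO replicate 1. Sex as a covariate also ended the call of Cdh16 (edgeR adjusted p = 0.0660). Of the 8 genes, 7 had a log2 fold change above 0, against 7204 of all 14842 genes tested. Their median was 0.28, against -0.0039 over all genes tested. Cdh5, the endothelial VE-cadherin, averaged 41.1 ± 5.27 CPM in Grhl2_cKO and 40.7 ± 9.94 CPM in control libraries (SD, n = 3 each) and was chosen after its values were seen.

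The further catenins and the proteins that link adherens junctions to actin were not called. Of 18 such genes, 17 were tested and edgeR called 0, with 3 at an unadjusted p below 0.05, 2 of them lower, against 13.3% of all genes tested; limma-voom called 0, and DESeq2 called 2, Jup as lower and Ctnnbip1 as higher. The most abundant were Actn4, an actin crosslinker, at 728.0 ± 39.8 CPM in Grhl2_cKO and 739.4 ± 17.1 CPM in control libraries, and Tln1, encoding talin, at 536.1 ± 34.9 CPM in Grhl2_cKO and 514.5 ± 26.4 CPM in control libraries (SD, n = 3 each). Jup, encoding gamma-catenin, stood at 177.1, 152.0 and 185.3 CPM in Grhl2_cKO libraries, against 265.3, 199.3 and 206.5 CPM in control libraries. Jup had a log2 fold change of -0.38 ± 0.11 (SE; n = 3 each; adjusted p = 0.111 with edgeR, DESeq2 adjusted p = 0.0125). Ctnnbip1, an inhibitor of beta-catenin, averaged 79.97 ± 3.3 CPM in Grhl2_cKO and 67.0 ± 2.54 CPM in control libraries (SD, n = 3 each; edgeR adjusted p = 0.0501). Jup and Ctnnbip1 were chosen after their values were seen.

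Genes that act on cadherins and EpCAM were mostly not called. Of 14 sheddases and turnover factors tested, 1 fell and none rose, against 2.39% of all genes tested called lower and 1.23% called higher. St14, encoding the protease matriptase, stood at 199.8, 201.5 and 216.9 CPM in Grhl2_cKO libraries, against 241.0, 247.4 and 240.0 CPM in control libraries. St14 had a log2 fold change of -0.24 ± 0.06 (SE; n = 3 each; edgeR adjusted p = 0.0479), and the adjusted p was 0.0560 to 0.189 when any 1 of the 6 libraries was left out. The St14 call was also lost with RLE scaling (edgeR adjusted p = 0.0570), upper-quartile scaling (0.0632), no filter (0.0643) and sex as a covariate (0.0752). Of 10 transcriptional repressors of Cdh1, 9 were tested, and edgeR, DESeq2 and limma-voom each called 0, with 0 at an unadjusted edgeR p below 0.05. The most abundant of them were the E-box factors Tcf3, at 274.8 ± 19.6 CPM in Grhl2_cKO and 267.8 ± 6.26 CPM in control libraries, and Tcf4, at 81.2 ± 6.70 CPM in Grhl2_cKO and 85.7 ± 3.01 CPM in control libraries (SD, n = 3 each). Zeb1 was the one repressor of the 9 whose genotypes did not overlap, at 9.86, 8.28 and 8.29 CPM in Grhl2_cKO libraries, against 7.62, 8.22 and 5.74 CPM in control libraries (edgeR adjusted p = 0.530). Its lowest Grhl2_cKO library, at 8.28 CPM, was just above its highest control library, at 8.22 CPM. Of all genes tested, 18.1% did not overlap in either direction, 8.17% as higher. Among other Snail and Zeb repressors, Zeb2 averaged 40.1 ± 0.82 CPM in Grhl2_cKO and 42.9 ± 5.04 CPM in control libraries, and Snai1 averaged 5.51 ± 0.45 CPM in Grhl2_cKO and 5.19 ± 0.76 CPM in control libraries (SD, n = 3 each). Zeb1, Zeb2 and Snai1 were chosen after their values were seen. Of 7 genes of the complex that marks beta-catenin for breakdown, edgeR, DESeq2 and limma-voom each called 0, with 1 at an unadjusted edgeR p below 0.05, near the share of 13.3% over all genes tested. Its most abundant genes were Csnk1a1, at 359.5 ± 17.2 CPM in Grhl2_cKO and 360.7 ± 12.4 CPM in control libraries, and Apc, at 251.2 ± 10.8 CPM in Grhl2_cKO and 274.4 ± 6.81 CPM in control libraries (SD, n = 3 each).

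Markers of other cell types were set beside Cdh2, since N-cadherin is known from heart muscle, nerve and mesenchyme. Summed over 14 mesenchyme markers, CPM ranged from 970.8 to 1935 in Grhl2_cKO and from 1003 to 1584 in control libraries. Of the 14, edgeR, DESeq2 and limma-voom called 0, with 0 at an unadjusted edgeR p below 0.05, against 13.3% of all genes tested.

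Sums over 3 other lists did not overlap between the genotypes. Beside the calls given here, 1.23% of all genes tested were called higher. For sums of genes no such share was computed. Heart muscle sums were 226.2 to 436.5 CPM in Grhl2_cKO and 170.8 to 201.6 CPM in control libraries, with 1 of 8 tested genes higher, the myosin Myh7. Without Myh7 the heart sums overlapped, at 30.3 to 235.8 CPM in Grhl2_cKO and 32.3 to 55.0 CPM in control libraries. The cardiac actin Actc1 stood at 51.3, 6.16 and 3.91 CPM in Grhl2_cKO replicates 1, 5 and 10, against 11.7, 4.81 and 3.74 CPM in control replicates 1, 3 and 7, and Myl2 was at 0 in the 6 libraries (both chosen after their values were seen). Nerve sums were 12.7 to 22.8 CPM in Grhl2_cKO and 9.49 to 12.3 CPM in control libraries, with 2 of 6 tested genes higher, Tubb3 and Elavl3. Without Tubb3 the nerve sums overlapped, at 11.2 to 19.2 CPM in Grhl2_cKO and 9.29 to 11.96 CPM in control libraries. Neuroendocrine sums, over 8 markers, were 77.4 to 88.8 CPM in Grhl2_cKO and 64.7 to 70.8 CPM in control libraries, with 1 of 6 tested genes higher, Insm1. Uchl1 dominated this sum and was not called (edgeR adjusted p = 0.103). Uchl1 stood at 68.1, 68.5 and 77.5 CPM in Grhl2_cKO libraries, against 62.8, 58.0 and 59.6 CPM in control libraries. Uchl1 was chosen after its values were seen, and a sum without it was not computed. Of the 6 tested neuroendocrine genes, 5 were higher without overlap, against 8.17% of all genes tested. At an unadjusted edgeR p below 0.05 there were 3, each higher, against 13.3% of all genes tested in either direction.

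The calls of the nerve and neuroendocrine markers depended on single libraries. Tubb3 lost its call with limma-voom (adjusted p = 0.0663), with the robust edgeR test (0.0502) and on omission of each library other than Grhl2_cKO replicate 10 (edgeR adjusted p of 0.0559 to 0.145). Its log2 fold change was 2.79, and 2.04 without Grhl2_cKO replicate 1. Tubb3 had 61, 24 and 15 counts in Grhl2_cKO libraries and 5, 5 and 3 in control libraries, near the 3-count limit. Elavl3 lost its call without Grhl2_cKO replicate 10 (edgeR adjusted p = 0.0655), control replicate 3 (0.0716) or control replicate 7 (0.0576). Insm1 lost its call without Grhl2_cKO replicate 5 (edgeR adjusted p = 0.0743), Grhl2_cKO replicate 10 (0.0863), control replicate 3 (0.0714) or control replicate 7 (0.0764).

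Grhl2_cKO replicate 1 had the highest heart, nerve and mesenchyme sums of the 6 libraries. Cdh2 stood at 44.8 CPM in that library, and without it the log2 fold change of Cdh2 was 1.34 (edgeR adjusted p = 0.000105). The part of heart, mesenchyme, nerve and neuroendocrine transcripts in the Cdh2 level was not tested. Sums over 10 lung epithelium markers were 16728 to 19769 CPM in Grhl2_cKO and 16688 to 18192 CPM in control libraries. Without Sftpc, the surfactant gene that dominated this sum, they did not overlap, at 4134 to 4320 CPM in Grhl2_cKO and 3883 to 3907 CPM in control libraries. Another surfactant gene, Sftpb, was the largest part of the sum that remained. Sftpb stood at 2429, 2077 and 2229 CPM in Grhl2_cKO libraries, against 1894, 1901 and 1788 CPM in control libraries (edgeR adjusted p = 0.178). A sum without both surfactant genes was not computed. Of the 10 markers, edgeR and limma-voom called 0, and DESeq2 called the keratin Krt8 as lower and the surfactant gene Sftpb as higher. At an unadjusted edgeR p below 0.05 there were 3, 2 lower and 1 higher, against 13.3% of all genes tested. Sums for mesothelium, endothelium, blood and smooth muscle overlapped. In the mesothelium list Krt19 dominated the sum, and Msln averaged 9.97 ± 6.55 CPM in Grhl2_cKO and 29.9 ± 13.96 CPM in control libraries (SD, n = 3 each; edgeR adjusted p = 0.0816; chosen after its values were seen). Msln had the lowest log2 fold change of the 7 mesothelium markers, at -1.58. Of the 7, 4 had a log2 fold change below 0 and 3 above 0, and edgeR called 0.

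**Figure D4:**
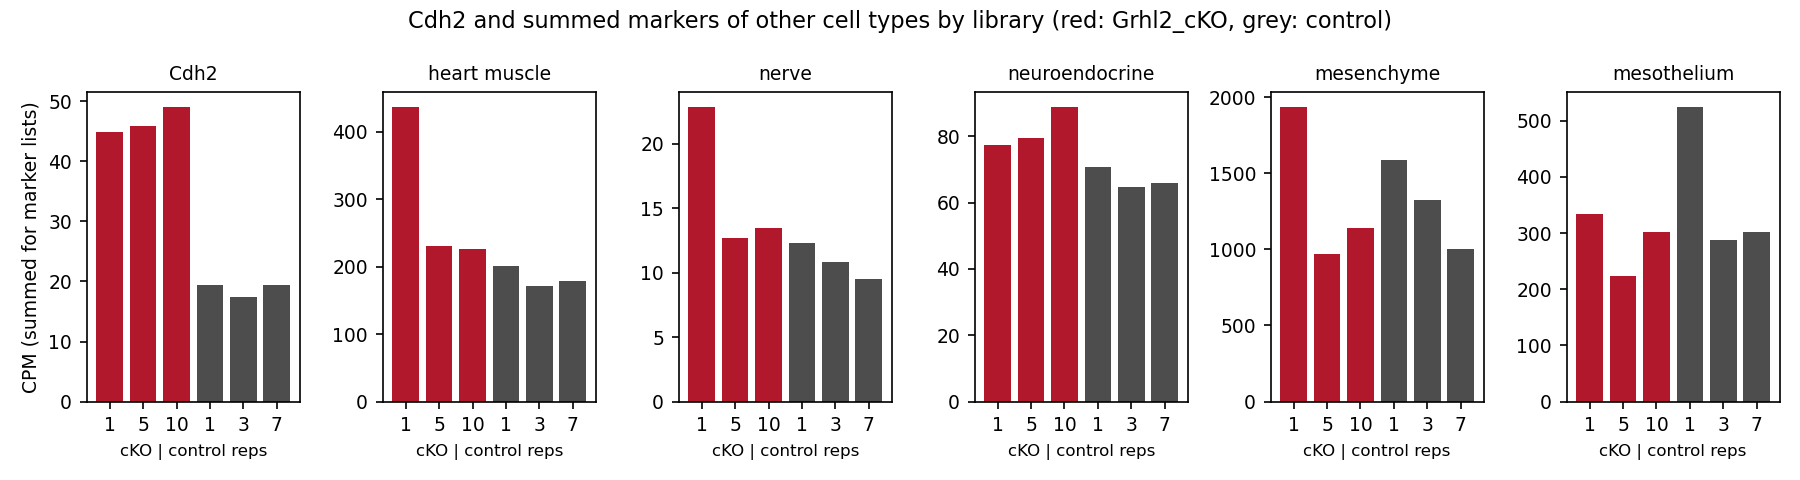
CPM of Cdh2 and summed CPM of marker lists of other cell types (vertical axes, from 0, one scale per panel) in Grhl2_cKO replicates 1, 5 and 10 (red) and control replicates 1, 3 and 7 (grey). Grhl2_cKO replicate 1 was highest for heart muscle (436.5 CPM), nerve and mesenchyme, and lowest of the Grhl2_cKO libraries for Cdh2 (44.8 CPM).

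Genes whose log2 CPM followed Cdh2, Epcam or Cdh1 most closely over the 6 libraries were listed by Pearson's r among 11689 genes, as a description, since the libraries share 2 genotypes. For Cdh2 these were Pcdh7 (r = 0.995), Kif1a (0.994), P4ha3 (0.993), Ttc28 (0.993) and Flvcr2 (0.991). Pcdh7, a protocadherin, stood at 12.6, 13.4 and 14.0 CPM in Grhl2_cKO libraries, against 6.65, 5.54 and 5.81 CPM in control libraries. For Epcam they were Lad1 (r = 0.991), Arl8b (0.991), St14 (0.988), Acy1 (0.988) and Dsp (0.987), of which Dsp encodes the desmosomal protein desmoplakin. For Cdh1 they were Lamp2 (r = 0.995), Krt8 (0.991), Vta1 (0.990), Cd9 (0.989) and Efcab1 (0.987), where Krt8 encodes an epithelial keratin. Each gene of this last list was, like Cdh1, highest in control replicate 1, and edgeR called none of them.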

How the data were processed

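Raw counts per Entrez gene for 6 libraries of polyadenylated RNA, with a gene length in bases, form the 1 table that the authors deposited. Per the submitters' processing notes, the mm10 build was used with bcl2fastq 2.17.1.14, featureCounts, limma 3.30.12 and edgeR 3.16.5. The sources used here do not name the aligner, the strand setting or the handling of multi-mapping reads. All 6 libraries shared a sequencing lane, per the labels, and the genotypes are not split by lane.

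Symbols and coordinates came from RefSeq (25275 identifiers, 92.99%) and exon overlaps from the GENCODE annotation. Counts were tested with edgeR 4.0.16 in R 4.3.3: TMM (factors 0.981 to 1.009), filterByExpr (minimum count 10, total 15; 14842 genes tested), estimateDisp, glmQLFit, glmQLFTest without covariates, and Benjamini-Hochberg adjustment over all genes tested at 0.05. Standard errors were taken as the absolute log2 fold change divided by the root of F. Ratios and shares used exact two-sided permutation tests. The edgeR step was tested on simulated data. Replicates differed beyond counting noise (chi-square per degree of freedom 7.72 to 12.9). The alternatives were scaling by RLE, upper quartile or total count, other filters, DESeq2 1.42.0, limma-voom 3.58.1, robust and legacy quasi-likelihood (the last chosen after seeing the data), a sex covariate, and omission of each library.

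The members, gene lists and motifs were chosen with earlier results of these data known. Named genes are the members, Grhl2, up to 5 called genes of each list by p (or, where none was called, the 2 most abundant), called genes of marker lists, and the 5 genes of mean count 50 or more most correlated with Cdh2, Cdh1 and Epcam; others are marked in the text. Some genes of these lists are not reported here, and the lists are counted without them.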

Additional observations from a re-analysis of the deposited data

How the results depend on the processing

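Cdh2 and Epcam kept their direction and their call under each of the 16 alternatives, and Cdh1, Cdh11, Ctnna1, Ctnnb1 and Ctnnd1 were called under none. Leaving out each library in turn moved the number of genes lower in Grhl2_cKO to between 166 and 338 (355 with the 6 libraries), the number higher to between 78 and 221 (182), and the number of the 8 genes called higher to between 1 and 2; each such fit has fewer samples. Of the 8 genes, 1 was called lower in each of these fits. Genes near 0 changed sign. Csnk1a1 had a log2 fold change of 0.0029 under RLE scaling, 0.010 under upper-quartile scaling and 0.0031 with DESeq2, against -0.0047, and -0.034 to 0.033 when each library was left out. Over the same omissions Ctnna1 ranged from -0.093 to 0.013, Actn4 from -0.062 to 0.012 and Cdh11 from -0.20 to 0.089. No scaling moved the median of all genes by over 0.1 on the log2 scale. No paired analysis was possible because the labels give no pairing of the libraries. With 3 libraries per genotype, an exact permutation test cannot pass 0.05. Low counts limit Cdh6, Cdh20, Tubb3, Elavl3 and Insm1.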
